A study of Danio rerio with 12 samples.

Results

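The transcripts described are those of the cortisol axis in zebrafish (Danio rerio) larvae: the receptors nr3c1 and nr3c2, the receptor-linked genes fkbp5, tsc22d3 and klf9, the cortisol-inactivating enzymes hsd11b2 and hsd20b2, the peptide gene crhb, the corticotropin receptor gene mc2r and the cholesterol transporter gene star. They were chosen by name, as 10 gene symbols, and 9 of them had a row of counts (of 25811 genes tabulated for the low dose and 25448 for the high dose). The gene mc2r was not analysed here. Poly(A) RNA had been sequenced from larvae kept in the solvent DMSO (control, 5 libraries), in broflanilide at 1 µg/L (low dose, 4 libraries) or in broflanilide at 10 µg/L (high dose, 3 libraries). Broflanilide is an insecticide of the meta-diamide class that acts on the GABA receptor of insects. The sources used here give no strain, no larval age and no exposure time. Both doses are compared with the same control libraries. The labels name no separate clutches or pools, so every p-value measures only the spread between these libraries, which may be technical.

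Cortisol is the main glucocorticoid of fish. Corticotropin-releasing hormone from the hypothalamus makes the pituitary release corticotropin, which acts through its receptor on the interrenal cells of the head kidney, the fish counterpart of the adrenal cortex, where the transporter encoded by star feeds cholesterol into steroid synthesis. Cortisol then binds the glucocorticoid receptor (nr3c1) and the mineralocorticoid receptor (nr3c2), which are held ready by Hsp90 chaperones and act as transcription factors on targets such as fkbp5, tsc22d3 and klf9, and dehydrogenases remove the hormone again.

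By edgeR's quasi-likelihood test with Benjamini-Hochberg adjustment over all genes, 0 of 9 transcripts passed an adjusted p of 0.05 at either dose or between the doses; over all genes the share that passed was 0.00% in each of the 3 comparisons. DESeq2 likewise called 0 of the 9, against 0.00532% of all genes at 1 µg/L, 0.0215% at 10 µg/L and 0.00% between the doses. It gave hsd20b2 no adjusted p at 1 µg/L or between the doses, so that gene could not be called there. At an unadjusted p under 0.05 there were 0 of 9 at 1 µg/L (3.89% of all genes), 1 of 9 at 10 µg/L (nr3c2; 2.00% of all genes) and 1 of 9 between the doses (tsc22d3; 4.48% of all genes). Groups that did not overlap in any library were likewise seen for 0 of 9 at 1 µg/L (1.54% of all genes), for nr3c2 at 10 µg/L (2.48% of all genes) and for tsc22d3 between the doses (6.72% of all genes). The transcript nr3c2 passed the mean count filter of 10 only through exposed libraries, where its counts were higher. Its p and its separation from the controls are therefore a description and no support for a difference. In the authors' deposited table the smallest adjusted p of the 9 was 0.983 at 1 µg/L and 1.00 at 10 µg/L.

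Total counts ran from 10721597 to 16380300 per library. Low dose replicate 4 was the deepest library, had the lowest share of mitochondrial counts (4.69%, against 5.47% to 7.59% in the other 11) and lay at one end of the first principal component, with control replicate 3 at the other. On the second component control replicate 2 lay at one end and low dose replicate 4 at the other. These are the 3 libraries that stood apart. Of the 9 cortisol axis transcripts, 6 had their highest level of all 12 libraries in low dose replicate 4, where 20.4% of all genes had theirs, and tsc22d3 had its lowest there, as did 19.3% of all genes. The other 3 (tsc22d3, crhb and star) were highest in high dose replicate 3, where 8.82% of all genes had their highest level. The part of these libraries' general difference in the values below was not tested, and values that turn on one of them are also given without it. Levels within a gene are given as CPM, counts relative to library size on 1 TMM scale over all 12 libraries.

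**Figure D1:**
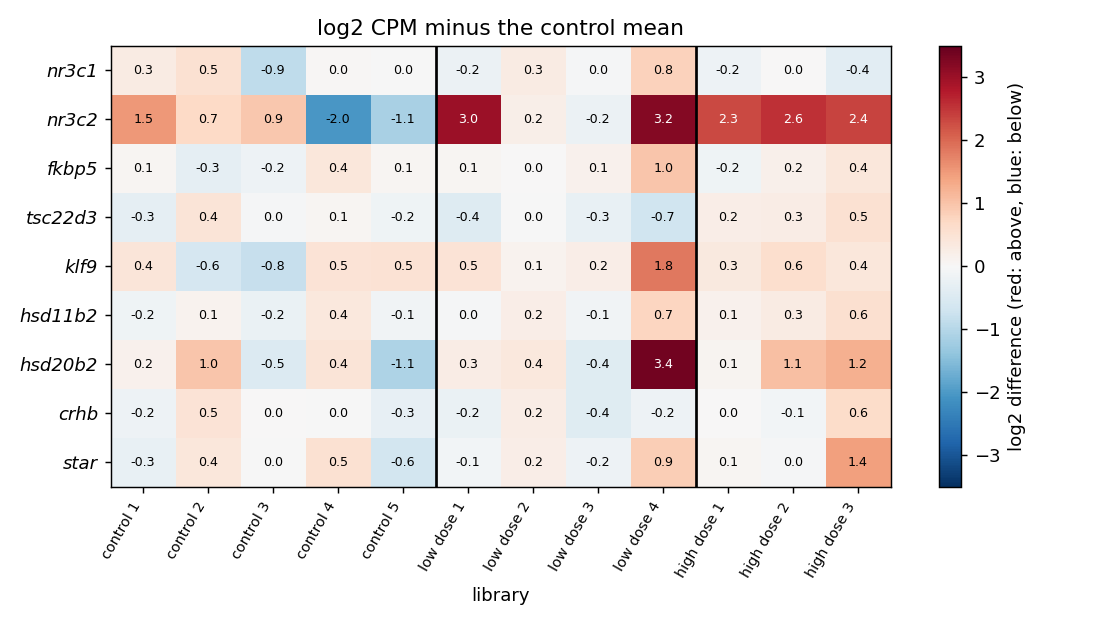
Heat map of log2 CPM minus the mean of the 5 control libraries, with 1 row per cortisol axis transcript and 1 column per library; vertical lines separate the groups and each cell prints its value. The column of low dose replicate 4 is red for nr3c1, nr3c2, fkbp5, klf9, hsd11b2, hsd20b2 and star and blue for tsc22d3, and the row of nr3c2 is red in all 3 high-dose libraries.

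Levels of different genes can be compared only per transcript length, for which the authors' deposited FPKM serve. In control libraries (n = 5 throughout) tsc22d3 stood first at 98.6 ± 20.3 FPKM (mean ± SD), then fkbp5 at 77.1 ± 15.1 and klf9 at 56.3 ± 22.2. The peptide gene crhb followed at 18.5 ± 4.13 FPKM and hsd11b2 at 13.6 ± 2.49. The glucocorticoid receptor nr3c1 was at 1.93 ± 0.630 FPKM, star at 1.39 ± 0.460, hsd20b2 at 0.396 ± 0.218 and the mineralocorticoid receptor nr3c2 at 0.101 ± 0.0927. The ranges of neighbours in this order overlapped between tsc22d3 and fkbp5, fkbp5 and klf9, crhb and hsd11b2, nr3c1 and star, and hsd20b2 and nr3c2. They did not overlap between klf9 and crhb, hsd11b2 and nr3c1, or star and hsd20b2, so the 3 receptor targets stood above crhb and hsd11b2, these above nr3c1 and star, and these above hsd20b2 and nr3c2.

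**Figure D2:**
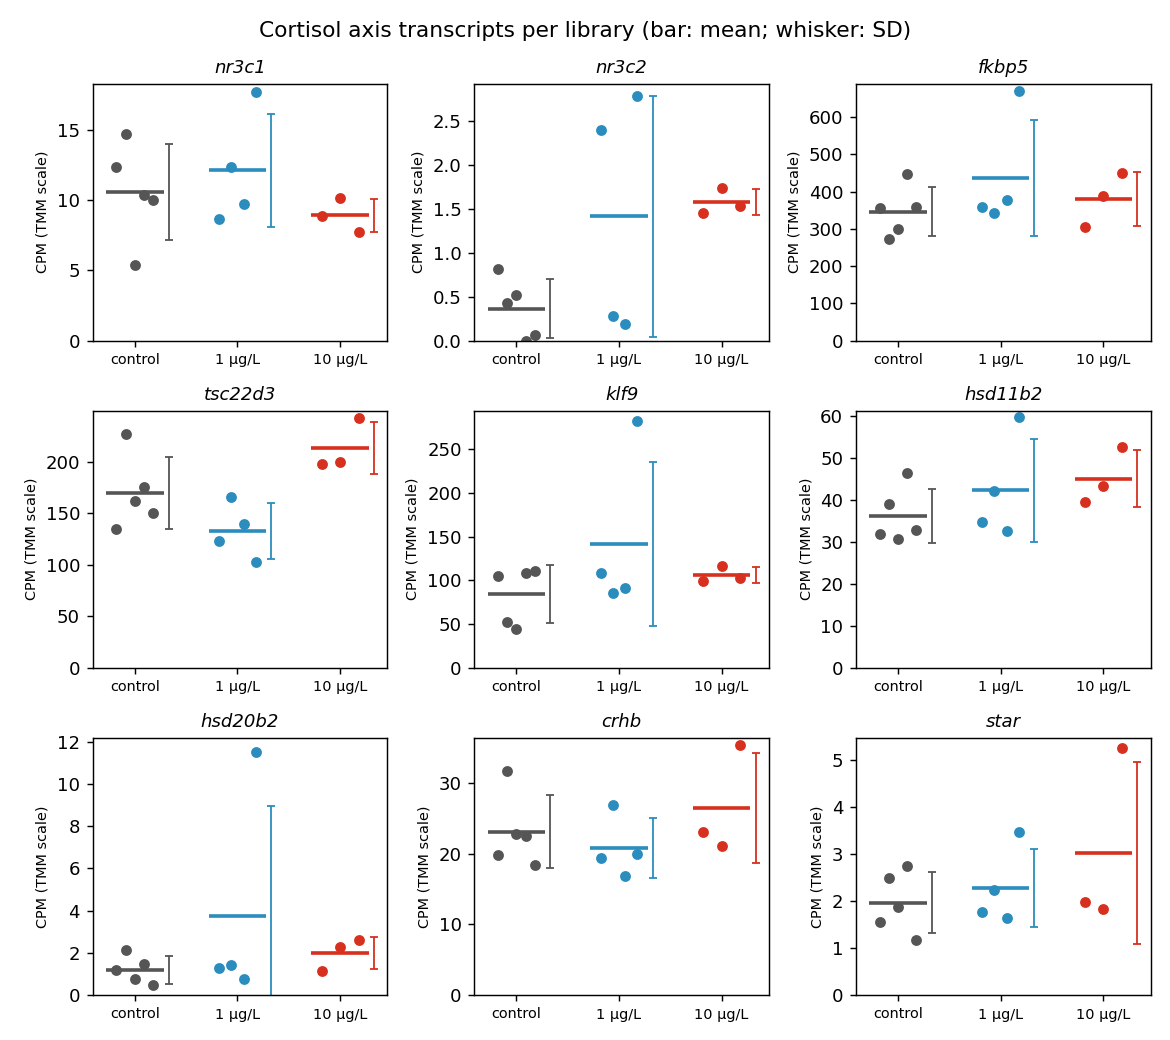
CPM of the 9 cortisol axis transcripts in every library (points), with the group mean (bar) and SD (whisker), by dose; each panel has its own axis from 0, and the low-dose whisker of hsd20b2 runs below 0 and is cut there. The 3 high-dose points of nr3c2 lie above all 5 control points, those of tsc22d3 above all 4 low-dose points, and 1 low-dose library sets the low-dose spread of klf9, fkbp5 and hsd20b2.

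The signal that starts the axis, crhb (ENSDARG00000027657, chromosome 24, 24847683 to 24881996, minus strand, build GRCz11 here and throughout), encodes corticotropin-releasing hormone and is made mostly by neurons. Control libraries 1 to 5 held 19.9, 31.8, 22.8, 22.6 and 18.5 CPM, low-dose libraries 1 to 4 held 19.4, 26.9, 16.9 and 20.0 CPM, and high-dose libraries 1 to 3 held 23.1, 21.0 and 35.5 CPM; values are always listed in replicate order. The groups overlapped, and high dose replicate 3 was the highest library. The log2 fold change was -0.15 (SE 0.21) at 1 µg/L and 0.20 (SE 0.24) at 10 µg/L, with edgeR adjusted p of 0.938 and 1.00. Without high dose replicate 3 the high-dose value was -0.065. In RNA from whole larvae, fewer cells of a type and less RNA per cell cannot be told apart.

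In the interrenal gland, star (ENSDARG00000006137, chromosome 8, 44703854 to 44707937, plus strand) encodes the protein that carries cholesterol into mitochondria, the acute control point of steroid synthesis. Its control libraries held 1.55, 2.49, 1.88, 2.73 and 1.17 CPM, its low-dose libraries 1.75, 2.23, 1.64 and 3.45 CPM and its high-dose libraries 1.98, 1.83 and 5.25 CPM. High dose replicate 3 stood at 5.25 CPM while the other high-dose libraries lay within the control range. For star the log2 fold change came to 0.22 (SE 0.45) at 1 µg/L, or -0.060 without low dose replicate 4, and 0.62 (SE 0.51) at 10 µg/L, or -0.039 without high dose replicate 3 (edgeR adjusted p 0.955 and 1.00 with all libraries). The summed level of the interrenal markers with values (5 of 6 listed, star among them) ranged from 6.05 to 10.9 CPM in controls, from 5.5 to 15.4 at 1 µg/L, with low dose replicate 4 highest, and from 7.20 to 14.1 at 10 µg/L; its part in the values of star was not tested. Of these markers cyp11a2, the enzyme that opens steroid synthesis in larvae, was at 0 in 8 of 12 libraries. The gonad also uses star; its 4 markers summed to between 1.52 and 9.74 CPM over the 12 libraries.

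The glucocorticoid receptor transcript nr3c1 (ENSDARG00000025032, chromosome 14, 23746710 to 23801389, minus strand) spanned a wider range over the 5 control libraries than over the 3 high-dose libraries. A range widens with the number of libraries, and control replicate 3 set the lower end. The difference in spread was not tested. Control libraries held 12.4, 14.7, 5.42, 10.4 and 10.0 CPM, low-dose libraries 8.69, 12.4, 9.75 and 17.7 CPM and high-dose libraries 8.85, 10.2 and 7.76 CPM. The lowest of all libraries was control replicate 3 and the highest low dose replicate 4, and the high-dose libraries lay inside the control range. Group means were 10.6 ± 3.44 CPM (SD, n = 5) in controls, 12.1 ± 4.03 CPM (SD, n = 4) at 1 µg/L and 8.93 ± 1.21 CPM (SD, n = 3) at 10 µg/L. In the fit nr3c1 was at a log2 fold change of 0.20 (SE 0.31) at 1 µg/L, or -0.044 without low dose replicate 4, and -0.25 (SE 0.32) at 10 µg/L (edgeR adjusted p 0.947 and 1.00).

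The mineralocorticoid receptor transcript nr3c2 (ENSDARG00000102082, chromosome 1, 36935154 to 37087966, minus strand) had the largest fitted difference of the 9 at 10 µg/L. Bony fish make little or no aldosterone, and cortisol is a ligand of this receptor too. Raw counts were 11, 6, 5, 0 and 1 in the control libraries, 30, 4, 2 and 50 in the low-dose libraries and 22, 20 and 19 in the high-dose libraries, or 0.810, 0.426, 0.521, 0 and 0.0650 CPM, 2.39, 0.279, 0.193 and 2.79 CPM and 1.45, 1.74 and 1.53 CPM. The count of 0 in control replicate 4 allows a level of up to 0.273 CPM, from 3 counts and for counting error only. All 3 high-dose libraries lay above all 5 controls and close to each other, whereas the low-dose libraries were split: replicates 1 and 4 were above every other library of the 12, and replicates 2 and 3 lay within the control range.

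Group means of nr3c2 were 0.365 ± 0.335 CPM (SD, n = 5) in controls, 1.41 ± 1.37 CPM (SD, n = 4) at 1 µg/L and 1.58 ± 0.147 CPM (SD, n = 3) at 10 µg/L. The log2 fold change was 2.08 (SE 0.86) at 10 µg/L, with an unadjusted p of 0.0322 and an edgeR adjusted p of 1.00, and 1.94 (SE 1.00) at 1 µg/L, with 0.0748 and 0.924. In the authors' deposited table the values were 2.10 (unadjusted p = 0.0282) and 1.99 (unadjusted p = 0.0593). At so few counts the size depends on the prior count: with a prior count of 5 in place of the default the values were 1.38 and 1.28. With no count filter, a setting chosen after seeing the data, nr3c2 at 1 µg/L came to 1.38 when low dose replicate 4 was left out and 1.58 when replicate 1 was. The difference between the doses was 0.14 (SE 0.96, edgeR adjusted p = 0.996), or -0.20 without low dose replicate 2 and -0.21 without low dose replicate 3.

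**Figure D3:**
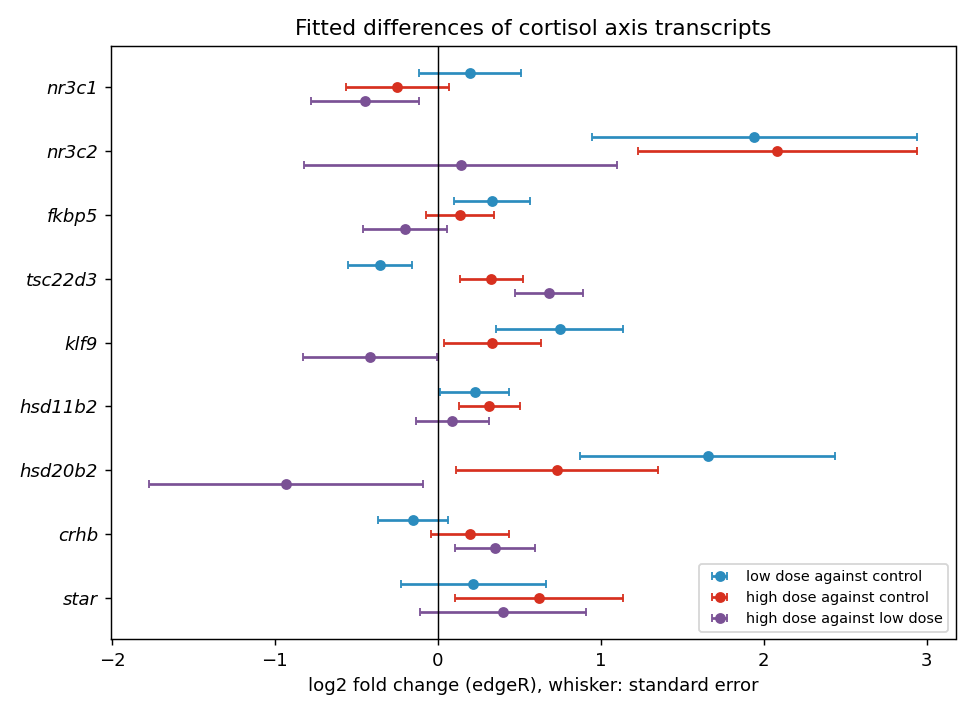
Log2 fold change of the 9 transcripts (points) with its standard error (whiskers) from edgeR, for low dose against control, high dose against control and high dose against low dose. The widest whiskers belong to nr3c2 and hsd20b2, the transcripts of lowest level, and tsc22d3 lies left of 0 at 1 µg/L and right of 0 at 10 µg/L.

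Among the receptor-linked genes, tsc22d3 (ENSDARG00000075666, chromosome 14, 27998756 to 28001986, minus strand) encodes the leucine zipper protein GILZ, a glucocorticoid-induced brake on inflammatory signalling. Control libraries held 135, 227, 162, 176 and 151 CPM, low-dose libraries 123, 166, 139.8 and 102 CPM and high-dose libraries 198, 200.1 and 243 CPM. Every low-dose library lay below the control mean and every high-dose library above it, which held in one direction or the other for 1.44% of all genes. The low-dose side was narrow: low dose replicate 2 held 166 CPM against a control mean of 170.1 CPM, and control replicate 2, at 227 CPM, raised that mean. The lowest high-dose library stood above the highest low-dose library. Against the control the groups overlapped at both doses: control replicate 2 lay within the high-dose range, and control replicates 1, 3 and 5 lay within the low-dose range.

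Group means of tsc22d3 were 170.1 ± 35.2 CPM (SD, n = 5) in controls, 133 ± 27.0 CPM (SD, n = 4) at 1 µg/L and 214 ± 25.4 CPM (SD, n = 3) at 10 µg/L. Against the control its log2 fold change was -0.36 (SE 0.20, unadjusted p = 0.0953) at 1 µg/L and 0.33 (SE 0.19, unadjusted p = 0.117) at 10 µg/L by edgeR, with adjusted p of 0.924 and 1.00. The low-dose value was -0.23 without control replicate 2, and -0.10 without control replicates 2 and 3 and low dose replicate 4. At the high dose the same settings gave 0.45 and 0.47. High dose exceeded low dose by 0.68 (SE 0.21, log2), with an unadjusted p of 0.00507 and an edgeR adjusted p of 0.953, and by 0.58 to 0.81 when each of the 12 libraries was left out in turn. It was at 0.58 without low dose replicate 4, the library with the lowest tsc22d3.

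The transcription factor gene klf9 (ENSDARG00000068194, chromosome 5, 26075230 to 26078165, plus strand) is a direct glucocorticoid receptor target in larvae and other vertebrates and is also tied to the circadian clock. Control libraries held 105, 52.0, 44.5, 108 and 110.4 CPM, low-dose libraries 108, 85.0, 91.2 and 282 CPM and high-dose libraries 99.1, 117 and 103 CPM. Control replicates 2 and 3 were the lowest of the 12 libraries, low dose replicate 4 stood alone above all others, and the remaining 9 libraries lay between 85.02 and 117 CPM. Its log2 fold change was 0.75 (SE 0.39, edgeR adjusted p = 0.924) at 1 µg/L and 0.33 (SE 0.30, adjusted p = 1.00) at 10 µg/L. Without low dose replicate 4 the low-dose value was 0.17, and leaving out control replicates 2 and 3 as well gave -0.19, with -0.025 at 10 µg/L. As those controls were the lowest in klf9, leaving them out lowers its value by construction.

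The immunophilin gene fkbp5 (ENSDARG00000028396, chromosome 6, 41096058 to 41117242, plus strand) encodes an Hsp90 co-chaperone that lowers the receptor's affinity for cortisol and is itself induced by the receptor. Control libraries held 355, 273, 299, 447 and 358 CPM, low-dose libraries 359.5, 342, 377 and 669.8 CPM and high-dose libraries 305, 387 and 449 CPM. All groups overlapped, and low dose replicate 4 was again the library far above the rest. For fkbp5 the log2 fold change was 0.34 (SE 0.23, edgeR adjusted p = 0.924) at 1 µg/L, or 0.054 without low dose replicate 4. At the high dose it was 0.13 (SE 0.21, adjusted p = 1.00), or -0.022 without control replicates 2 and 3, which were also the lowest libraries in fkbp5.

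Across the 12 libraries fkbp5 and klf9 varied together, at a Pearson r of log2 CPM of 0.87 (permutation p adjusted over 6 pairs = 0.00336) and a Spearman rho of 0.74 (adjusted permutation p = 0.0464); unadjusted, the two-sided permutation p were 0.00056 and 0.00774. With group means subtracted r was 0.85 (adjusted permutation p = 0.00318). The permutation moved values over all 12 libraries and took no account of the subtracted means, so this last p is too small. The permutation makes no allowance for depth and composition differences between libraries that many genes share, and their part in this relation was not tested. Without the 2 libraries farthest from the median of fkbp5, low dose replicate 4 and control replicate 2, r was 0.57 and rho 0.56 (adjusted permutation p = 0.172 and 0.437). The sign was the same there, but the relation did not pass over those 10 libraries, which also span a narrower range of fkbp5. With low dose replicate 4 alone left out r was 0.71 and rho 0.66 (adjusted permutation p = 0.0942 and 0.182). Neither pair with tsc22d3 passed over the 12 libraries as they are: tsc22d3 against klf9 gave r = -0.53 (rho -0.31, adjusted permutation p = 0.147 and 0.782) and fkbp5 against tsc22d3 r = -0.45 (rho -0.17, adjusted permutation p = 0.209 and 0.782). Those r were -0.19 and -0.0024 without low dose replicate 4. With group means subtracted tsc22d3 against klf9 gave r = -0.68 (adjusted permutation p = 0.042) and rho = -0.68 (adjusted permutation p = 0.0539). These p also take no account of the subtracted means and are too small. They include low dose replicate 4, the library lowest in tsc22d3 and highest in klf9, so no pass is read from them.

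The receptor transcript nr3c1 gave r = 0.39 with fkbp5, -0.29 with tsc22d3 and 0.53 with klf9 (adjusted permutation p = 0.251, 0.366 and 0.147), and rho of 0.063, -0.15 and 0.27 (adjusted permutation p = 0.853, 0.782 and 0.782). Without control replicate 3 and low dose replicate 4, the 2 libraries farthest from the median of nr3c1, r was -0.57, -0.0018 and -0.67. No pair with nr3c1 passed in either set.

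**Figure D4:**
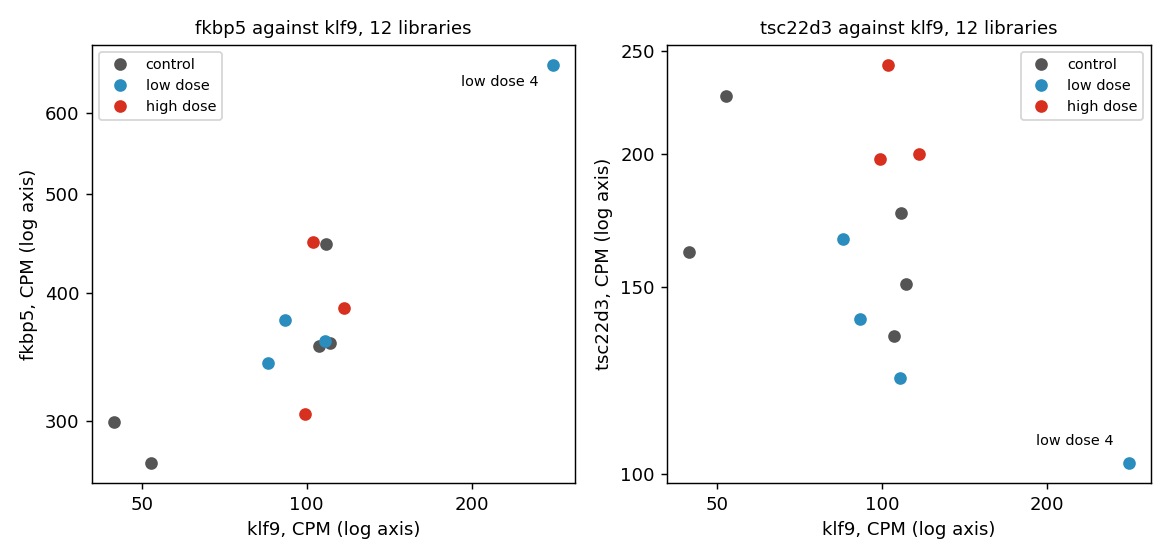
CPM of fkbp5 (left) and tsc22d3 (right) against klf9 in the 12 libraries, coloured by group, all axes logarithmic. Low dose replicate 4 has the highest klf9 and fkbp5 and the lowest tsc22d3, while 9 libraries share a narrow range of klf9 between 85.02 and 117 CPM.

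Among the 11402 named genes whose counts averaged 50 or more, those whose log2 CPM over the 12 libraries was most like that of klf9 were ulk1a, a kinase that starts autophagy, ca5a, a mitochondrial carbonic anhydrase, and slc38a9, a lysosomal amino acid transporter. Their Pearson r was 0.97, 0.95 and 0.94, and 0.95, 0.90 and 0.87 without low dose replicate 4. For fkbp5 they were arfgap2, a regulator of vesicle coats, pfkfb4b, a regulator of glycolysis, and uba1, the ubiquitin-activating enzyme (r = 0.93, 0.92 and 0.91, and 0.84, 0.80 and 0.75 without that library). For tsc22d3 they were the olfactory marker gene ompa, gatd1 and the cytochrome oxidase subunit gene cox4i2 (r = 0.93, 0.92 and 0.92, and 0.90, 0.89 and 0.90 without that library). These are the highest of many correlations over 12 libraries that share depth and composition differences, given as a description with no test.

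Cortisol is inactivated in sequence by hsd11b2 (ENSDARG00000001975, chromosome 7, 35112052 to 35126374, minus strand), whose enzyme turns it into cortisone, and hsd20b2 (ENSDARG00000031336, chromosome 5, 38200807 to 38214807, plus strand), whose enzyme reduces cortisone to a form that zebrafish excrete. For hsd11b2, control libraries held 31.9, 38.9, 30.5, 46.3 and 32.8 CPM, low-dose libraries 34.6, 42.0, 32.4 and 59.6 CPM and high-dose libraries 39.3, 43.1 and 52.4 CPM. The 3 high-dose libraries lay above 4 of the 5 controls, and the groups overlapped through control replicate 4. The log2 fold change was 0.32 (SE 0.19, edgeR adjusted p = 1.00) at 10 µg/L, or 0.19 without high dose replicate 3. It was 0.23 (SE 0.21, adjusted p = 0.924) at 1 µg/L, or 0.012 without low dose replicate 4.

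The transcript hsd20b2 was scarce except in 1 library. Control libraries held 1.18, 2.13, 0.730, 1.46 and 0.455 CPM, low-dose libraries 1.28, 1.39, 0.772 and 11.5 CPM and high-dose libraries 1.12, 2.26 and 2.59 CPM. Low dose replicate 4 had 207 counts, and no other library had more than 32. The low-dose log2 fold change of 1.66 (SE 0.78, edgeR adjusted p = 0.924) was -0.049 without that library; the authors' deposited table gives 1.69 for all 4 low-dose libraries with no unadjusted p. At the high dose it was 0.73 (SE 0.62, adjusted p = 1.00), with 2 of 3 libraries above every control. High against low dose was -0.93 (SE 0.84), or 0.78 without low dose replicate 4.

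The genes around these 9 were read from 5 lists that include them, and by edgeR 0 genes of any list passed the adjusted threshold at either dose. From each list 3 further genes were picked for the smallest unadjusted p at either dose. Their p and separation in these same libraries are therefore a description and no support for a difference. Medians are set against those of all genes tested, 0.0013 at 1 µg/L and -0.0032 at 10 µg/L (log2), where 50.2% and 49.5% of genes had a positive value. Among receptor chaperones and cofactors, values were positive in 17 of 23 genes at 1 µg/L and 16 of 23 at 10 µg/L. The median log2 fold change was 0.20 at 1 µg/L and 0.050 at 10 µg/L, or 0.15 and 0.049 without nr3c1, nr3c2 and fkbp5. With single libraries left out, the low-dose median ran from 0.072 (without low dose replicate 4) to 0.29 (without low dose replicate 3) and the high-dose median from -0.0026 (without control replicate 3) to 0.13 (without control replicate 5). The low-dose fit without low dose replicate 4 tested 22 of the 23 genes. At an unadjusted p under 0.05 there were 1 of 23 at 1 µg/L (3.89% of all genes) and 3 of 23 at 10 µg/L (2.00% of all genes). The latter were hsp90aa1.2, fkbp4 and nr3c2. Because nr3c2 passed the count filter only through exposed libraries, its place in that count is no support for a difference.

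The chaperone that holds the receptor in its cortisol-binding state is Hsp90. Several genes encode it, and hsp90aa1.2 was picked by its p in these libraries. It held 55.5, 65.2, 56.4, 61.1 and 59.0 CPM in control libraries, 68.5, 58.8, 62.3 and 90.5 in low-dose libraries and 115, 118 and 146 in high-dose libraries. All 3 high-dose values of hsp90aa1.2 exceeded every control, a separation seen in either direction for 2.48% of all genes. The log2 fold change at 10 µg/L was 1.09, SE 0.15, with an edgeR adjusted p of 0.234 and a DESeq2 adjusted p of 8.10e-07; in the authors' deposited table it was 1.07 with an adjusted p of 7.52e-06. The co-chaperone gene fkbp4, whose protein moves the receptor toward the nucleus and opposes that of fkbp5, held 62.6, 78.6, 103, 71.2 and 60.9 CPM in controls and 97.0, 92.8 and 118 CPM at 10 µg/L (0.45, SE 0.20, edgeR adjusted p = 1.00), where control replicate 3 overlapped the high-dose range. The close copy hsp90aa1.1 differed by 0.96, SE 0.42 at 1 µg/L (edgeR adjusted p = 0.924), or 0.47 without low dose replicate 4, and as close copies the pair may share reads, which was not measured here. At 10 µg/L hsp90aa1.1 was at 0.036 (SE 0.39). The Hsp90 gene hsp90ab1, named after its values were seen, was at 0.17 (SE 0.24) at that dose.

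Of the glucocorticoid target list, 37 of 38 genes were tested, and values were positive in 20 at 1 µg/L and 28 at 10 µg/L. The median log2 fold change was 0.034 at 1 µg/L and 0.14 at 10 µg/L. Over fits that each left out 1 library the low-dose median lay between -0.11 and 0.16; it was below 0 without control replicate 2, without low dose replicate 4 (-0.061) or without control replicate 1. The high-dose median lay between 0.11 and 0.24, and was 0.042 without control replicates 2 and 3. At an unadjusted p under 0.05 there was 1 gene of 37 at 1 µg/L, where the share of all genes was 3.89%, so the count is near that background. It was pdk4, a kinase that restrains pyruvate oxidation in fasting. It held 8.47, 5.83, 3.65, 6.83 and 13.3 CPM in controls and 11.3, 9.96, 10.6 and 27.5 CPM at 1 µg/L (0.96, SE 0.40, edgeR adjusted p = 0.924), or a log2 fold change of 0.48 without low dose replicate 4 and 0.15 with control replicates 2 and 3, the lowest controls in pdk4, left out too. There was also 1 gene of 37 at 10 µg/L, near the 2.00% of all genes, igfbp1a, a binding protein that restrains insulin-like growth factors in stress and fasting. It held 50.1, 20.5, 44.0, 60.2 and 62.7 CPM in controls and 67.4, 74.2 and 83.9 CPM at 10 µg/L (0.66, SE 0.29, edgeR adjusted p = 1.00), with all 3 high-dose libraries above every control. Such a separation, in either direction, held for 2.48% of all genes. The metallothionein gene mt2 differed by -0.62, SE 0.31 at 1 µg/L (edgeR adjusted p = 0.924), or -0.36 without low dose replicate 4.

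In the brain and pituitary list, 10 of 17 genes were tested at 1 µg/L and 11 at 10 µg/L, with medians of 0.026 and 0.18 (log2). Single libraries left out moved these to between -0.056 and 0.11, below 0 in 4 of 9 fits, and to between 0.040 and 0.29. The corticotropin precursor pomca, the defining pituitary marker, was at 0 in 10 of 12 libraries and below the count filter. Its paralog pomcb held 0.589, 1.42, 0.104, 0.273 and 0.325 CPM in controls, 1.04, 0.139, 0.676 and 1.11 at 1 µg/L and 0.925, 1.91 and 2.67 at 10 µg/L (1.71, SE 0.76, edgeR adjusted p = 1.00), with control replicate 2 inside the high-dose range. The high-dose value was 2.43 without control replicate 2 and 1.24 with a prior count of 5. At 1 µg/L pomcb lay under the count filter, and at 10 µg/L it passed only through the high-dose libraries, where it was higher. The high-dose median of the list includes pomcb and the low-dose median does not. The vasopressin receptor gene avpr1aa differed by 0.76, SE 0.58 at 1 µg/L and 0.82, SE 0.50 at 10 µg/L (edgeR adjusted p = 0.924 and 1.00); without low dose replicate 4 the low-dose value was 0.39. For mrap2a, an accessory protein of melanocortin receptors, the low-dose value was -0.61, SE 0.38 (edgeR adjusted p = 0.924).

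Of the interrenal steroid synthesis list, 11 of 19 genes were tested at each dose, with medians of 0.066 and 0.15. When 1 library was left out, the first was below 0 in 5 of 9 fits (lowest -0.062) and the second in 1 of 8, without high dose replicate 3 (-0.039). The ferredoxin gene fdx1, an electron carrier of mitochondria, held 0.663, 1.35, 13.7, 0.911 and 1.43 CPM in controls, 0.479, 1.04, 0.386 and 1.17 at 1 µg/L and 0.595, 0.782 and 0.565 at 10 µg/L. Control replicate 3 alone set its control mean: the log2 fold change was -2.17, SE 0.93 at 1 µg/L and -2.44, SE 1.05 at 10 µg/L (edgeR adjusted p = 0.924 and 1.00), and -0.48 and -0.75 without that library. Its reductase gene fdxr was at -0.67, SE 0.37 at 1 µg/L (adjusted p = 0.924). The sterol acyltransferase gene soat1 was at 1.26, SE 0.60 at 1 µg/L (adjusted p = 0.924), or 0.70 without low dose replicate 4 and 0.50 with control replicates 2 and 3 left out too. Its raw counts were 12, 9, 4, 13 and 6 in controls and 15, 13, 14 and 59 at 1 µg/L. At that dose soat1 passed the count filter only through the low-dose libraries, where it was higher. Its value is therefore a description.

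Of the cortisol inactivation list, 12 of 16 genes were tested at 1 µg/L and 11 at 10 µg/L, with medians of -0.011 and 0.14, or -0.13 and -0.0045 without hsd11b2 and hsd20b2. The direction turned on single libraries: the low-dose median ran from -0.18 (without low dose replicate 4) to 0.041 (without control replicate 3), and the high-dose median from -0.062 (without control replicate 2) to 0.35 (without high dose replicate 1). The fit without low dose replicate 4 tested 11 genes of the list, and that without high dose replicate 1 tested 10. Those medians are thus over fewer genes, and the part of this in the shifts was not tested. The carbonyl reductase gene cbr1 held 45.3, 66.8, 59.4, 47.8 and 44.5 CPM in controls, 43.6, 49.5, 52.6 and 32.2 at 1 µg/L and 38.6, 31.9 and 33.6 at 10 µg/L. All 3 high-dose libraries lay below every control (-0.60, SE 0.19, unadjusted p = 0.00795, edgeR adjusted p = 1.00). At 10 µg/L 2.48% of all genes did not overlap the controls in either direction. The sulfotransferase genes sult2st2 and sult2st3 had low-dose values of -0.58, SE 0.40 and -0.51, SE 0.27 (edgeR adjusted p = 0.924 and 0.924), and as members of a family of close copies they may share reads. With single libraries left out, the low-dose values ran from -0.80 to -0.30 for sult2st2 and from -0.76 to -0.40 for sult2st3. At 10 µg/L the values were 0.28, SE 0.41 and -0.23, SE 0.24.

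**Figure D5:**
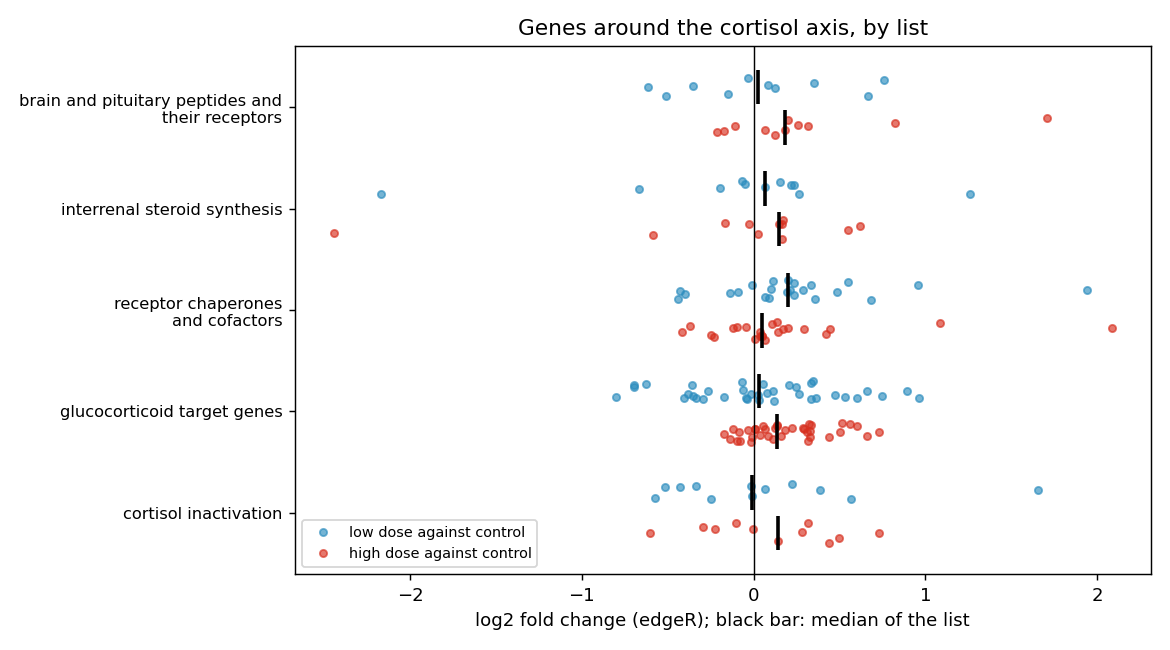
Log2 fold change (edgeR) of each tested gene of the 5 lists, at 1 µg/L (blue) and at 10 µg/L (red), with the list median as a black bar; points are spread vertically for legibility. The medians lie between -0.011 and 0.20, and the points farthest from 0 are fdx1 on the left and nr3c2, pomcb and hsd20b2 on the right.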

How the data were processed

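RNA of 12 libraries of zebrafish larvae was analysed. Per the labels' protocols it was isolated with TRIzol and made into directional poly(A) libraries. Tools named in the submitters' processing notes are HISAT2, fastp, DESeq2 and featureCounts, and the build is GRCz11; no source used here says whether reads were counted by strand, so overlapping genes may share reads. Per the file headers, the authors deposited raw counts per gene, a normalized signal (counts divided by a size factor, unused here), FPKM, and their own log2 fold change and p-value, quoted only as the authors' deposited table.

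Counts were tested with edgeR 4.0.16 in R 4.3.3 (TMM, the default prior count, mean count 10 or more): each dose with its controls, and high against low dose on all 12 libraries. Standard errors are log2 fold changes over the root of F. Log2 CPM for correlations had a prior count of 1, and their p came from 100000 permutations. In a simulation of the low-dose comparison over 18811 genes, 17.0% of 2-fold and 68.0% of 4-fold changes were called. For the high dose, over 18618 genes, the shares were 18.0% and 55.0%. Of the genes called, 9.57% and 2.67% were false calls at the low and high dose. The changed genes were drawn from all genes tested, so these rates are not those of scarce transcripts such as nr3c2. Each gene's counts were drawn independently, without the differences that many genes share between these libraries, so the rates may not hold for these data.

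The 10 genes, the lists, the named genes and the alternatives were chosen with earlier results of these data known. Named were all 10 genes, the 3 further genes of each list with the smallest unadjusted p at either dose, and the 3 genes most correlated with each of fkbp5, tsc22d3 and klf9. Of the genes with counts, 0 of 9 lay under the count filter, so the test planned for such genes had no gene to run on. By its control libraries alone nr3c2 would have lain under the filter. Alternatives were DESeq2 1.42.0, its size factors in edgeR, no filter on counts or a stricter one of 50, a prior count of 5, a block for the replicate number, leaving out single libraries or the 3 that stood apart, and 1 fit of all libraries.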

Additional observations from a re-analysis of the deposited data

Results flagged for a closer look

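A far library was looked for among the control and low-dose values of each named gene, in 48 groups, and 6 were found. The rule's nominal rate of about 5% is no background for these genes. Low dose replicate 4 was the highest library for 20.4% of all genes and the lowest for 19.3%. The list genes were also picked by their p in these same libraries. The share flagged over all genes is not given here. In low dose replicate 4 the level was 669.8 CPM for fkbp5, 282 CPM for klf9, 11.5 CPM for hsd20b2 and 27.5 CPM for pdk4, each far above the other low-dose libraries, and 8.19 CPM for sult2st2, far below them. These 5 share 1 library and are not independent. For sult2st2, control replicate 2 was lower still, at 7.18 CPM. In control replicate 3 fdx1 was at 13.7 CPM, far above the other controls.

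For tsc22d3 every low-dose library lay below the control mean and every high-dose library above it. Low dose replicate 2 was only just below, at 166 CPM against a control mean of 170.1 CPM. The difference between the doses was 0.68 on the log2 scale and had an edgeR adjusted p of 0.953, so it did not pass when tested.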

How the results depend on the processing

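Of 470 values of the 9 transcripts under alternative settings, 443 kept their direction and 0 passed the threshold. DESeq2 called 1 gene at 1 µg/L and 4 at 10 µg/L, against 0 by edgeR, among them hsp90aa1.2, the 1 gene of the chaperone list. Leaving out low dose replicate 4 and control replicates 2 and 3 gave 1 gene at 10 µg/L and 3 between the doses, 1 of them in that list. Without those 3 libraries the low-dose log2 fold change was -0.085 for nr3c1, -0.10 for fkbp5, -0.021 for hsd11b2, -0.19 for klf9, 0.058 for crhb, 0.26 for fkbp4, -0.48 for igfbp1a and 0.084 for cbr1. At the high dose it was -0.022 for fkbp5, -0.025 for klf9, 0.31 for mrap2a and 0.14 for mt2, and between the doses 0.082 for fkbp5, 0.78 for hsd20b2 and 0.16 for klf9.

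With 1 library left out at a time, low-dose values ran from -0.044 to 0.35 for nr3c1, -0.049 to 1.99 for hsd20b2, -0.060 to 0.37 for star, -0.24 to 0.046 for fkbp4 and -0.21 to 0.22 for igfbp1a. High-dose values ran from -5.2e-05 to 0.27 for fkbp5, -0.065 to 0.34 for crhb, -0.039 to 0.88 for star, -0.41 to 0.086 for mrap2a, -0.17 to 0.32 for hsp90aa1.1 and -0.12 to 0.15 for mt2. Between the doses they ran from -0.21 to 0.71 for nr3c2, -0.34 to 0.082 for fkbp5, -0.034 to 0.31 for hsd11b2, -1.26 to 0.78 for hsd20b2, -0.60 to 0.16 for klf9 and -0.26 to 0.68 for star. For nr3c2, which falls under the count filter in several of these fits, the same with no filter, added after the data were seen, gave 1.38 to 2.48 at 1 µg/L and 1.79 to 2.62 at 10 µg/L.

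Deviations from the group mean correlated at -0.26 to 0.26 between same-numbered libraries. They were above 0 in every pair of groups for numbers 1 and 3, and below 0 for numbers 2 and 4. Libraries of different number were not compared, so these values cannot decide whether the numbers mark pairs. The main tests did not take them as pairs. With the replicate number as a block, 0 genes were called in each comparison, and the difference between the doses was 0.032 for fkbp5, 0.37 for hsd20b2 and 0.086 for klf9; nr3c2 was at 1.13 for the low and 1.44 for the high dose, and the high-dose median of the target list at 0.42. Without low dose replicate 4, r was -0.096 for nr3c1 with fkbp5, 0.058 for nr3c1 with tsc22d3 and 0.71 for fkbp5 with klf9, the last with an adjusted permutation p of 0.0942. Without the 2 farthest libraries r was -0.57 for nr3c1 with fkbp5, -0.67 for nr3c1 with klf9, 0.32 for fkbp5 with tsc22d3 and 0.57 for fkbp5 with klf9. With group means subtracted r was -0.68 for tsc22d3 with klf9. Its adjusted permutation p of 0.042 takes no account of the subtracted means and is too small. The cause of these changes was not tested. Counts of 0 to 50 limit nr3c2.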

Other observations

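Between the doses, 3 of 37 glucocorticoid target genes had an unadjusted p under 0.05, against 4.48% of all genes, all with higher values at the high dose: tsc22d3, sgk1 and nfkbiab. The latter pair was named after its values were seen. Over the 37 genes, 22 values were positive and 15 negative, and 48.9% of all genes had a positive value. The gene sgk1, a kinase that acts on ion transport, held 72.8, 41.0, 58.5, 105 and 94.2 CPM in controls, 58.9, 47.3, 46.3 and 71.6 at the low dose and 85.3, 98.3 and 92.6 at the high dose. The gene nfkbiab, an inhibitor of NF-kappa-B, held 153, 129.7, 189, 218 and 169 CPM in controls, 138, 130.1, 136 and 167 at the low dose and 177, 225 and 228 at the high dose. For both, the high-dose libraries lay above every low-dose library, and 6.72% of all genes did not overlap between the doses in either direction. The high-dose libraries of sgk1 lay within the control range, and 2 of the 3 of nfkbiab lay above it. High against low dose was 0.72 (SE 0.27, log2) for sgk1 and 0.55 (SE 0.19) for nfkbiab, with edgeR adjusted p of 0.953 and 0.953, and 0.86 and 0.64 without low dose replicate 4. In the same comparison klf9 was at -0.42 and fkbp5 at -0.20, or 0.16 and 0.082 without that library.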
